A study of Homo sapiens with 14 samples.

Results

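The first 8 h after transfection of HepG2 cells with miR-124 were described from the arrays taken at 4 and 8 h. These were 4 of the 14 arrays of the series: 1 miR-124 and 1 negative control array at each time, chosen by their labelled transfection and time. HepG2 is an established human line from a liver tumour, and both transfections were made in it. Total RNA was labelled with biotin and hybridised to one-colour oligonucleotide arrays. The other 10 arrays, of 16, 24, 32, 72 and 120 h, are used here to follow the genes that stood out early. The labels do not say what sequence the negative control had, how much RNA was transfected, or whether arrays came from separate cultures.

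miR-124 is a microRNA that is abundant in neurons and scarce in liver cells. A microRNA loaded into an Argonaute protein pairs through its seed, the bases near its 5′ end, with sites that lie mostly in the 3′ untranslated regions of messenger RNAs. The TNRC6 proteins that bind Argonaute then recruit deadenylases, and the messenger RNA is shortened at its tail and decays. The sequences of miR-124 and of 3′ untranslated regions were not used here, so genes are described without their sites.

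Values are RMA log2 signals, so a difference of 1 is 2-fold. The ratio of a gene at a time is the miR-124 array minus the negative control array of the same time, on the log2 scale. One probe set stood for each gene, that with the highest mean over the 14 arrays, and 13137 genes with a mean above 6.19 were tested. With 1 array for each transfection and time, a ratio at 4 or 8 h has no replicate error and no test. The spread between the ratios of different times was the error in a limma fit over all 14 arrays, and standard errors (SE) below come from it. RMA makes the distributions of the arrays alike, so a change of all messenger RNA together cannot be seen. Fewer cells expressing a gene and less of its RNA per cell cannot be told apart.

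The cells carried the markers of their labelled type. All 11 measured hepatocyte markers (such as ALB, AFP, APOA1, TTR and SERPINA1) were above the floor of the test, with a mean level of 12.4 on each of the 4 arrays. Of markers of other cell types, 4 of 7 for blood, 4 of 6 for fibroblasts, 3 of 5 for endothelium and 4 of 6 for neurons lay above the floor. Their mean levels on the 4 arrays ran from 8.68 to 8.82 for blood, 6.99 to 7.24 for fibroblasts, 7.51 to 7.59 for endothelium and 6.89 to 7.04 for neurons. PTPRC, which marks blood cells, was not among the genes above the floor. The miR-124 array of 4 h stood apart in its control probe sets. Its mean 18S ribosomal RNA signal was 11.1, against 8.70 on the control array of 4 h, 8.28 on the miR-124 array of 8 h and 9.20 on the control array of 8 h. Its poly-A spikes read 7.40, against 6.05, 5.91 and 6.20 on the same arrays, and its hybridisation spikes read 9.74, against 9.34, 9.36 and 9.63. The difference between the 3′ and 5′ probe sets of ACTB was 0.35 on both arrays of 4 h, and 0.36 and 0.31 on the miR-124 and control arrays of 8 h. The part of these control signals in the results at 4 h was not tested.

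At both times most genes had nearly the same signal after either transfection. The ratio had an SD over genes of 0.152 at 4 h and 0.147 at 8 h, with medians of -0.02 and 0.02. The difference between the control arrays of 8 h and 4 h had an SD of 0.177, larger than that of either ratio. At 8 h the lower tail reached further than the upper: the lowest ratio was -1.25 and the highest 0.85. At 4 h the lowest was -0.97 and the highest 1.10.

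In numbers of genes, 52 of 13137 (0.396%) were at least 1.5-fold lower after miR-124 at 8 h and 3 (0.0228%) at least 1.5-fold higher. At least 2-fold lower at 8 h were 8 genes (0.0609%), and 0 (0%) were at least 2-fold higher. At 4 h, 33 genes (0.251%) were at least 1.5-fold lower and 14 (0.107%) at least 1.5-fold higher. At 4 h, 0 genes (0%) were 2-fold lower and 4 (0.0304%) at least 2-fold higher. The limma test of the mean ratio over 4 and 8 h called 0 of 13137 genes (0%) at an adjusted p under 0.05, with 163 genes at an unadjusted p under 0.05. Fitted on the 4 arrays alone, which leave 1 residual degree of freedom, it called 0, with 316 genes at an unadjusted p under 0.05. No gene is therefore said to have risen or fallen within the first 8 h, and the values below are described as levels and differences.

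**Figure D1:**
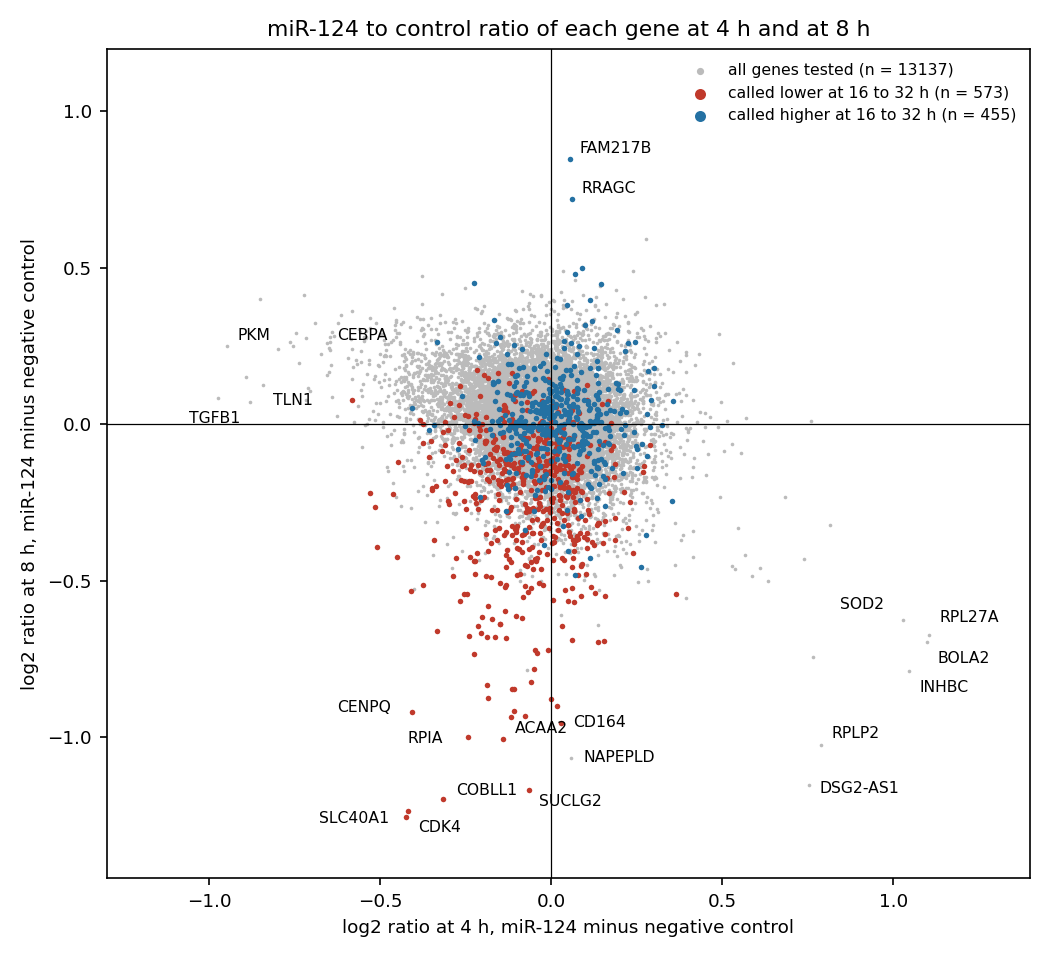
Each point is a gene, with its log2 ratio of miR-124 over negative control at 4 h on the horizontal axis and at 8 h on the vertical axis. Genes called lower at 16 to 32 h are red and genes called higher there are blue. Red points reach down to -1.25 at 8 h, with a median of -0.18 there and -0.06 at 4 h, while the points farthest left and right at 4 h are grey.

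The 8 genes at least 2-fold lower at 8 h were led by an iron exporter and a cell cycle kinase. SLC40A1, which codes for ferroportin, the iron exporter of the cell surface, read 8.42 on the miR-124 array and 8.84 on the control array at 4 h, and 7.94 and 9.20 at 8 h. Its ratio was -0.42 at 4 h and -1.25 at 8 h, a level 2.38-fold lower than the control at 8 h. CDK4, the kinase that D cyclins activate in the G1 phase, read 10.57 and 10.99 at 4 h, and 9.65 and 10.89 at 8 h. Its level was 2.35-fold lower at 8 h. For both genes the miR-124 arrays lay below both control arrays, and the miR-124 array of 8 h was the lowest of the 4. The mean ratio over both times was -0.84 ± 0.17 (SE) for SLC40A1 and -0.83 ± 0.37 (SE) for CDK4.

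COBLL1, a relative of the actin-binding protein COBL, read 9.47 after miR-124 and 9.78 in the control at 4 h, and 8.53 and 9.72 at 8 h. SUCLG2, the GTP-forming beta subunit of the succinyl-CoA ligase of the citric acid cycle, read 9.79 and 9.85 at 4 h, and 8.47 and 9.64 at 8 h. ACAA2, the mitochondrial thiolase of fatty acid beta-oxidation, read 10.47 and 10.61 at 4 h, and 9.62 and 10.62 at 8 h. In these 3 genes the arrays of 4 h and the control of 8 h lay close together, and only the miR-124 array of 8 h stood away, by a ratio of -1.20 for COBLL1, -1.17 for SUCLG2 and -1.01 for ACAA2. RPIA, the ribose 5-phosphate isomerase of the pentose phosphate pathway, read 9.40 and 9.65 at 4 h, and 8.67 and 9.66 at 8 h, a ratio of -0.999 at 8 h. CD164, a sialomucin of the cell surface and of endosomes, read 11.73 and 11.70 at 4 h, and 10.63 and 11.58 at 8 h, a ratio of -0.95. NAPEPLD, a phospholipase that releases N-acylethanolamines, read 6.67 and 6.61 at 4 h, and 5.78 and 6.85 at 8 h. Its ratio of -1.07 at 8 h rested on levels near the floor.

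The remaining pair of the 10 lowest genes at 8 h had another pattern. RPLP2, an acidic protein of the ribosomal stalk, read 7.17 after miR-124 and 6.38 in the control at 4 h, and 6.37 and 7.39 at 8 h. The probe set annotated to DSG2-AS1, an RNA antisense to DSG2, read 6.85 and 6.10 at 4 h, and 5.94 and 7.09 at 8 h. Both were high on the miR-124 array of 4 h and on the control array of 8 h, and low on the other two arrays, so the ratio of RPLP2 went from 0.79 to -1.02 and that of DSG2-AS1 from 0.75 to -1.15. The other probe set of DSG2-AS1 above the floor read 0.10 and -0.05 at those times. RPLP2 has near-identical copies in the genome, and which copy its probe set measured is uncertain.

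**Figure D2:**
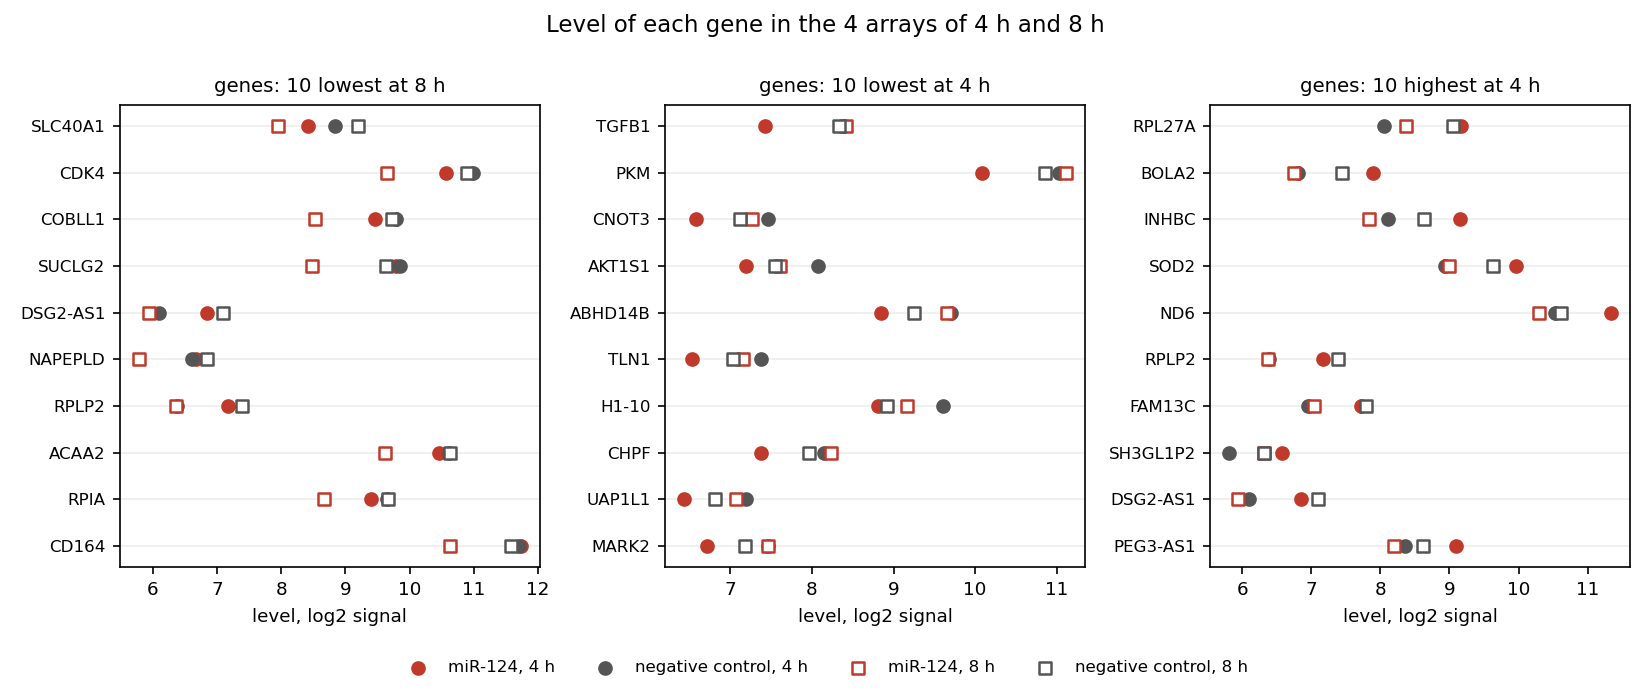
The log2 level of each gene is shown on the 4 arrays of 4 h (circles) and 8 h (squares), red for miR-124 and grey for negative control, for the 10 lowest genes at 8 h, the 10 lowest at 4 h and the 10 highest at 4 h. In the left panel the red square of 8 of 10 genes is alone at the low end; for RPLP2 and DSG2-AS1 it lies with the control of 4 h. In the middle panel the red circle is lowest for every gene, and in the right panel it is the highest for 7 of 10.

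Other probe sets of the low genes at 8 h gave like ratios for some genes and not for others. SUCLG2 had 2 more probe sets above the floor, at -1.09 and -1.28 at 8 h. CD164 had 2 more, at -0.68 and -0.75, and COBLL1 1 more, at -0.89. The other probe set of SLC40A1 read 0.03 at 8 h, those of ACAA2 read -0.24 and -0.03, and those of NAPEPLD 0.24 and -0.32. Over the 100 lowest genes at 8 h, 47 had another probe set above the floor. Its median ratio was -0.17, against -0.56 for the first probe set, and it had the same sign for 34 of 47 genes (72.3%), beside 62.9% over all genes with another probe set.

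The upper tail at 8 h was short. FAM217B, a gene of little-known function, read 9.80 after miR-124 and 9.75 in the control at 4 h, and 10.16 and 9.31 at 8 h, a ratio of 0.85. RRAGC, a Rag GTPase that signals amino acid supply to mTORC1, read 9.20 and 9.14 at 4 h, and 9.49 and 8.78 at 8 h, a ratio of 0.72. Other probe sets of RRAGC read 0.31 and 0.22 at 4 h, and 1.11 and 0.12 at 8 h. For both genes the miR-124 array of 8 h was the highest of the 4 and the control array of 8 h the lowest. The next ratios were 0.59 for RNA45SN5, a precursor of ribosomal RNA, 0.50 for SMIM13, 0.49 for FCGBP and ADORA3, 0.48 for TRIB2, a pseudokinase, 0.47 for the kinase MINK1, 0.46 for XAGE-4 and 0.45 for TNRC6A, a partner of Argonaute in silencing. Other probe sets above the floor read 0.18, -0.03 and 0.15 for MINK1, 0.24 and 0.15 for SMIM13, and -0.01 to 0.44 for TNRC6A. Over the 100 highest genes at 8 h, 29 had another probe set above the floor. It had the same sign for 25 of them (86.2%), beside 62.9% over all genes with another probe set. Its median was 0.14 against 0.36 for the first, and 1 was past 1.5-fold. RNA45SN5 is itself ribosomal. At 8 h the 28S control signal was 9.62 after miR-124 and 9.73 in the control, and the 18S signal was 8.28 and 9.20. The part of ribosomal RNA in the ratio of RNA45SN5 was not tested.

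The extremes at 4 h were other genes. TGFB1, the secreted growth factor, read 7.42 on the miR-124 array of 4 h and 8.39, 8.41 and 8.33 on the control of 4 h, the miR-124 array of 8 h and the control of 8 h. PKM, the last kinase of glycolysis, read 10.08 against 11.03, 11.11 and 10.86 in the same order. CNOT3, a subunit of the CCR4-NOT deadenylase, read 6.57 against 7.47, 7.26 and 7.11. In each of the 10 lowest genes at 4 h the miR-124 array of 4 h was the lowest of the 4. After TGFB1, PKM and CNOT3, the ratios at 4 h were -0.88 for AKT1S1, an inhibitor of mTORC1, -0.85 for ABHD14B, -0.84 for TLN1, which links integrins to actin, -0.80 for the linker histone H1-10, -0.76 for CHPF, and -0.75 for UAP1L1 and for the kinase MARK2. All 10 ratios were above 0 at 8 h, from 0.07 to 0.40. Other probe sets above the floor read -0.44 for MARK2, -0.13 for TGFB1, 0.00 for PKM and 0.10 and -0.10 for TLN1 at 4 h. Over the 100 lowest genes at 4 h, 51 had another probe set above the floor. It had the same sign for 42 of them (82.4%), beside 57.3% over all genes with another probe set, and a median of -0.18 against -0.55 for the first.

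The highest ratios at 4 h belonged to RPL27A, a protein of the large ribosomal subunit, BOLA2, which takes part in iron-sulfur cluster handling, INHBC, the beta C chain of activins made in liver, and SOD2, the mitochondrial superoxide dismutase. RPL27A read 9.16 after miR-124 and 8.06 in the control at 4 h, and 8.38 and 9.05 at 8 h. BOLA2 read 7.90 and 6.80, then 6.75 and 7.45. INHBC read 9.15 and 8.11, then 7.84 and 8.63. SOD2 read 9.96 and 8.93, then 9.0 and 9.62. Each of the 4 was highest on the miR-124 array of 4 h and next highest on the control array of 8 h. The same order held for the 18S signal. Their ratios of 1.03 to 1.10 at 4 h stood beside -0.62 to -0.79 at 8 h. The other probe set of INHBC read -0.08 at 4 h. Of the 10 highest genes at 4 h, 9 were below 0 at 8 h. Over the 100 highest genes at 4 h, 30 had another probe set above the floor. It had the same sign for 17 of them (56.7%), beside 57.3% over all genes with another probe set. Its median was 0.02 against 0.41 for the first, and 0 were past 1.5-fold, so other probe sets did not bear out this tail as a group. RPL27A and BOLA2 have close copies in the genome, so their probe sets may measure more than 1 gene.

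The ratios of 4 h and 8 h did not run together. Over 13137 genes their Pearson correlation was -0.166 and their Spearman correlation -0.157, a description across genes, which are not replicates. The sign was the same for 5780 genes (44.0%), with 2866 below 0 at both times and 2914 above 0 at both. With genes split by their mean level, the correlation was -0.05 in the lowest group of 4379 genes, -0.25 in the middle group and -0.28 in the highest. Of the 100 lowest genes at 4 h, 0 were among the 100 lowest at 8 h. Of the 100 highest at 4 h, 1 was among the 100 highest at 8 h, the kinase PRKG1. Each list holds 100 of 13137 genes, so unrelated lists would also share very few, and these counts alone show no disagreement. In contrast, 11 of the 100 highest genes at 4 h (11%) were among the 100 lowest at 8 h, which is the same share of each list. They included RPL27A, BOLA2, INHBC, SOD2, RPLP2, DSG2-AS1 and FAM13C, and 9 of the 11 were above 0 at 16 h and all 11 below 0 at 24 h. Among these 11, 7 were highest on the miR-124 array of 4 h, and 6 of those had the control array of 8 h next. The part of the 18S signal, highest on the same array, was not tested.

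A few genes were low at both times. By the smaller of both ratios, the 10 lowest were TXLNA, SLC40A1, CDK4, GAS2L1, CENPQ, KBTBD6, MYRF, DENND1B, UBE2Q2P16 and VANGL1. TXLNA, a syntaxin-binding protein, read 8.14 after miR-124 and 8.60 in the control at 4 h, and 7.94 and 8.36 at 8 h. GAS2L1, which links actin filaments to microtubules, read 7.91 and 8.32, then 7.27 and 7.80. CENPQ, a kinetochore component, read 6.54 and 6.95, then 5.87 and 6.79. Their ratios were -0.45 and -0.42 for TXLNA, -0.41 and -0.53 for GAS2L1, and -0.41 and -0.92 for CENPQ. In TXLNA and CENPQ both miR-124 arrays lay below both control arrays. In GAS2L1 the control of 8 h lay below the miR-124 array of 4 h. CENPQ lay near the floor, and under it on the miR-124 array of 8 h. The other probe set of TXLNA read 0.17 and 0.06, and that of GAS2L1 -0.26 and -0.12.

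MYRF, a membrane-bound transcription factor, was at -0.51 and -0.39, with the smallest error of the 10, a mean of -0.45 ± 0.09 (SE). DENND1B, an activator of Rab35, was at -0.37 and -0.51. The planar cell polarity protein VANGL1 was at -0.34 and -0.37, and 2 more of its probe sets read -0.20 and -0.16 at 4 h and -0.64 and -0.67 at 8 h. The 10 genes highest at both times had smaller ratios, from PRKG1 at 0.33 and 0.39 and FSCN3 at 0.31 and 0.38 to BTBD9 at 0.27 and 0.41.

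What followed in the later arrays differed between the extremes of 4 h and those of 8 h. The later ratios have their own controls, but the fit takes each gene's error from all 14 arrays, the early pairs included. In the limma contrast over 16, 24 and 32 h, 573 of 13137 genes fell (4.36%) and 455 rose (3.46%) at an adjusted p under 0.05. Of the 100 lowest genes at 8 h, 72 (72%) were called lower there and 1 was called higher. Of the 100 lowest at 4 h, 4 (4%) were called lower and 0 higher. With the window fitted on its own 6 arrays, more genes were called lower, 1074 of 13137. In that fit 81% of the lowest 100 at 8 h and 13% of those at 4 h were called lower. The calls rest on few times: without the 24 h pair 0 genes were called either way, and without the 32 h pair 9 lower and 3 higher. Without any call, 31 of the 100 lowest genes at 8 h and 0 of the 100 lowest at 4 h were at least 2-fold lower at each of 16, 24 and 32 h, beside 60 of all genes (0.457%).

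The 100 lowest genes at 8 h had median ratios of -0.06, -0.61, -0.86, -1.17, -1.14, -1.13 and -0.59 over the 7 times from 4 to 120 h. The median at 16 h depended on the probe set: it was -0.61 with the mean of a gene's probe sets, -0.64 without those ending in _x_at or _s_at, and -0.0032 over the 100 lowest of all probe sets taken singly. The 100 lowest at 4 h had medians of -0.55, 0.20, -0.29, 0.03, 0.15, -0.24 and 0.11 over the same times, so that 92% of them were below 0 again at 16 h and 9% at 8 h. The 100 highest at 8 h had a median of 0.37 there and of 0.13 at 24 and 32 h, with 10 called higher and 0 lower. The 100 highest at 4 h had medians within -0.10 and 0.12 from 8 to 120 h, with 2 called higher and 1 lower. Among genes above the upper quartile of signal the order turned, with 16% of the highest at 4 h and 13% of the highest at 8 h called higher. Across all genes the ratios at 8 h correlated with those at 24 h at a Pearson r of 0.448 (Spearman 0.263) and with 32 h at 0.411 (Spearman 0.262). With 16 h the measures differed in sign, at a Pearson r of 0.179 and a Spearman of -0.053. The ratios at 4 h correlated with 16 h at 0.302 (Spearman 0.299), with 24 h at 0.013 (0.0050) and with 32 h at -0.042 (-0.091). The genes at the edge of the 100 lowest had ratios of -0.48 on both sides at either time.

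**Figure D3:**
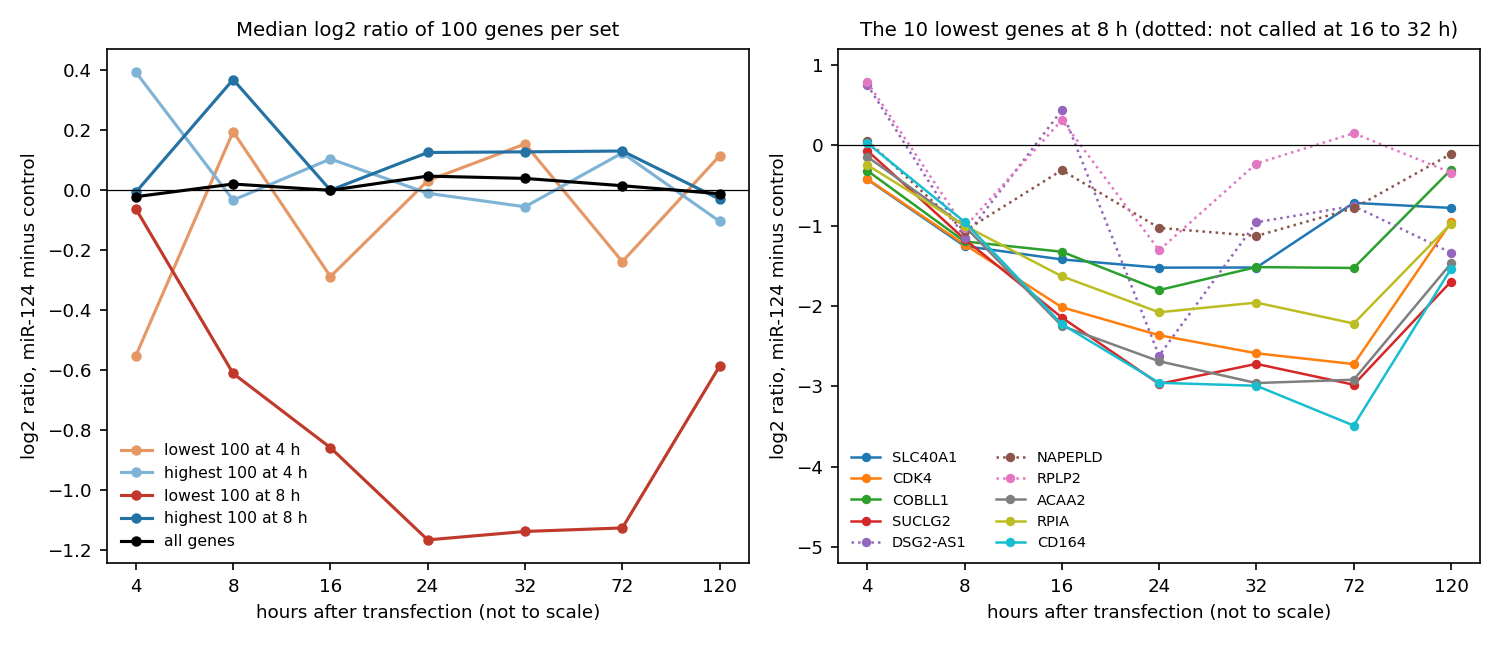
The left panel gives the median log2 ratio, over the 7 times, of the 100 lowest and 100 highest genes of 4 h and of 8 h and of all genes, and the right panel gives the ratios of the 10 lowest genes at 8 h. The genes lowest at 8 h stayed low, at a median of -1.17 at 24 h, while those lowest at 4 h were at 0.20 by 8 h.

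Of the 10 lowest genes at 8 h, 7 fell at 16 to 32 h by the limma test. SLC40A1 was at -1.49 ± 0.14 (SE; adjusted p = 0.0042), CDK4 at -2.32 ± 0.30 (adjusted p = 0.0064) and COBLL1 at -1.55 ± 0.24 (adjusted p = 0.011). SUCLG2 was at -2.61 ± 0.28, ACAA2 at -2.63 ± 0.27, RPIA at -1.89 ± 0.23 and CD164 at -2.72 ± 0.35. At 24 h the other probe sets above the floor read -0.42 and -0.24 for ACAA2 and 0.33 for SLC40A1. The size of the fall of ACAA2, and the fall of SLC40A1, thus rested on 1 probe set. Those of SUCLG2 read -3.20 and -3.24, those of CD164 -1.68 and -2.42, and that of COBLL1 -1.36. NAPEPLD at -0.82 ± 0.24 (adjusted p = 0.084), DSG2-AS1 at -1.05 ± 0.53 (adjusted p = 0.33) and RPLP2 at -0.41 ± 0.37 (adjusted p = 0.63) were not called. Of the 10 genes lowest in both early times, 8 fell, all but KBTBD6 (-0.71 ± 0.21) and UBE2Q2P16 (0.05 ± 0.09). Of the 10 highest at 8 h, FAM217B, RRAGC, SMIM13, TRIB2 and TNRC6A rose, RRAGC by 1.46 ± 0.15 and FAM217B by 0.70 ± 0.14. Without the 24 h pair none of these calls remained, as 0 genes were called. Of the 10 lowest and the 10 highest genes at 4 h and the 10 highest in both times, 0 were called at 16 to 32 h. Among all genes 4.36% were called lower and 3.46% higher there, so lists this small would hold few called genes in any case. The difference between the windows of 16 to 32 h and of 4 and 8 h was itself called for 0 genes. CDK4 came to -1.50 ± 0.48 in it (adjusted p = 0.38).

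Seen from the later arrays, the genes that fell at 16 to 32 h were mostly low at 8 h, and nearer to 0 but more often below it at 4 h. Of the 573, 506 (88.3%) were below 0 at 8 h, beside 43.0% of all genes, and 384 (67.0%) at 4 h, beside 56.6% of all genes. Their medians were -0.18 at 8 h and -0.06 at 4 h, and those of the 9 genes called without the 32 h pair were -0.42 and -0.12. At least 1.5-fold lower were 41 of them (7.16%) at 8 h and 0 at 4 h. Of the 60 genes at least 2-fold lower at each of 16, 24 and 32 h, 50 (83.3%) were below 0 at 4 h. Their median there was -0.12. Among the 150 of the 573 that were at least 2-fold lower, 149 were below 0 at 8 h, at a median of -0.37. At least 1.5-fold lower at 8 h were 29 of these 150 (19.3%). The 455 genes that rose had a median of 0.01 at both early times, and 2 of them were at least 1.5-fold higher at 8 h. The 1200 genes called lower at 72 and 120 h but not at 16 to 32 h had a median of -0.00 at 8 h, and 1 of them was at least 1.5-fold lower there.

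For the 150 genes, the ratio at 8 h was a median of 25.8% of the mean log2 ratio at 16 to 32 h, with quartiles of 16.0% and 39.7%. At 4 h the median was 4.22%. In 15 of the 150 genes the ratio at 8 h was at least 50% of the later one, and in 0 at 4 h. The share was highest for TMEM87B at 87.5%, SLC40A1 at 84.3%, COBLL1 at 77.3%, LYSMD3 at 70.6% and SYNC at 68.7%, and it was 53.2% for CDK4 and 52.9% for RPIA. TMEM87B, LYSMD3 and SYNC were named after their values were seen. SUCLG2, with a deeper later ratio, was at 44.7%, and ROCK1, the kinase that drives actomyosin contraction, at 43.7%. At the other end ICAM3, AIF1L, JPT2, EFNA1 and EFHD2, also named after their values were seen, had shares between -5.24% and 4.92%. A percentage of this kind compares a single pair of arrays with 3 pairs, and its error was not measured.

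**Figure D4:**
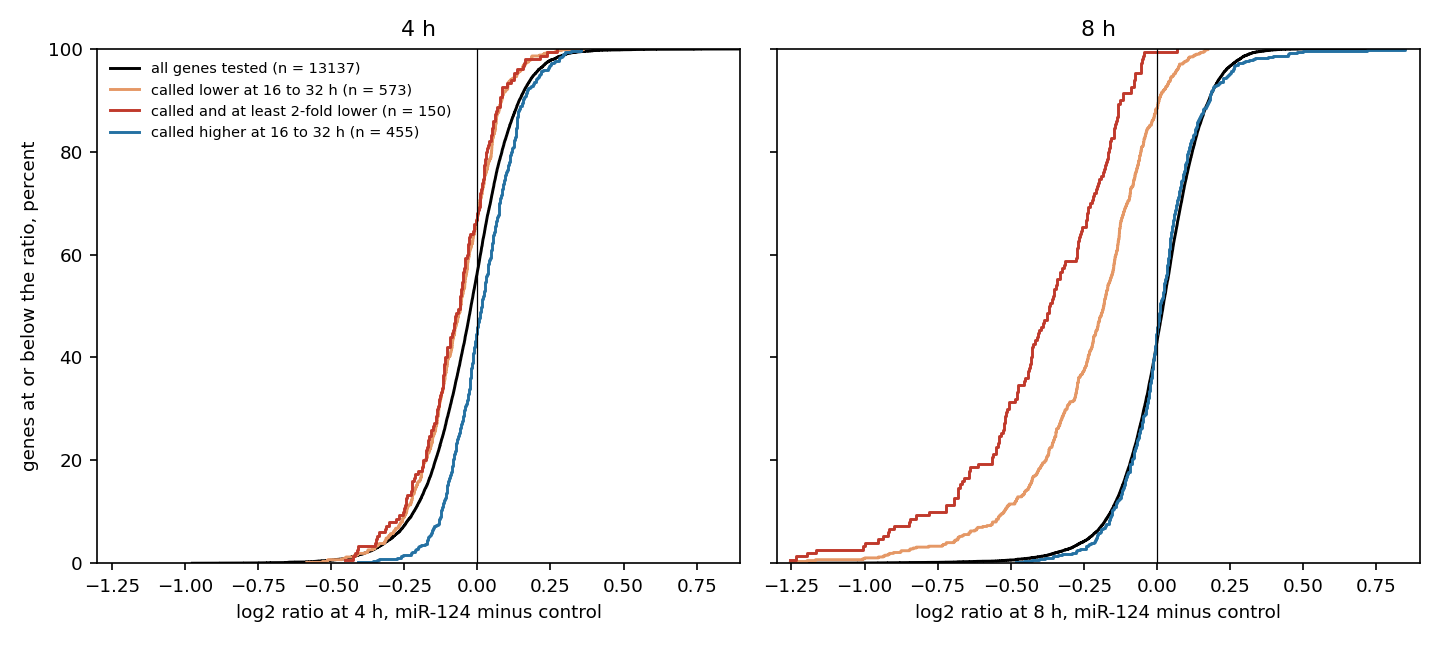
Cumulative percentage of genes at or below each log2 ratio at 4 h (left) and at 8 h (right), for all genes tested, the 573 genes called lower at 16 to 32 h, the 150 of these that were at least 2-fold lower and the 455 called higher. At 8 h the curves of the lower genes lie to the left, with 149 of the 150 below 0, and at 4 h the same curves lie close to that of all genes.

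Genes known as miR-124 targets were taken as a list of 46, of which 40 were tested. The list was written from general knowledge of published targets, some of which may come from these arrays, and so it is not independent evidence of a direction. At 8 h 30 of 40 (75%) were below 0, with a median of -0.15, beside 0.02 over all genes. At 4 h 28 of 40 (70%) were below 0, with a median of -0.09 beside -0.02, and 20 of 40 (50%) were below 0 at both times, beside 21.8% of all genes. Past 1.5-fold lower were CDK4 and CD164 at 8 h and CEBPA at 4 h. The test over 4 and 8 h called 0 of the 40, and that over 16 to 32 h called 22 lower (55%) and 0 higher, beside 4.36% and 3.46% of all genes. CEBPA, the liver transcription factor, read 10.34 on the miR-124 array of 4 h, 10.99 on the control of 4 h, 10.66 on the miR-124 array of 8 h and 10.42 on the control of 8 h, so its ratio went from -0.65 to 0.24.

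The scaffold IQGAP1 read 9.0 after miR-124 and 9.23 in the control at 4 h, and 8.48 and 8.96 at 8 h. The phosphatase PTPN12 read 10.28 and 10.42, then 10.00 and 10.50. VAMP3, a SNARE of recycling endosomes, read 11.18 and 11.25, then 10.82 and 11.27. For all 3 the miR-124 array of 8 h was the lowest of the 4. The ratios at 8 h were -0.48 for IQGAP1, -0.51 for PTPN12 and -0.45 for VAMP3, and other probe sets read -0.39 for IQGAP1 and -0.66 and -0.59 for VAMP3. Those of ROCK1 read -0.54 and -0.06. ROCK1 was at 0.06 at 4 h and -0.52 at 8 h, the Hippo pathway factor TEAD1 at -0.09 and -0.40, and the Polycomb methyltransferase EZH2 at -0.05 and -0.38. Smaller ratios at 8 h were those of CHSY1 at -0.34, SOX9 at -0.32 and the ceramide synthase CERS2 at -0.27. PTBP1, the splicing repressor for which miR-124 is best known, was at -0.14 and -0.12, and it was called lower at 16 to 32 h at -1.27 ± 0.25 (SE, adjusted p = 0.024). The order in which these genes are low at 8 h has no error of its own.

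**Figure D5:**
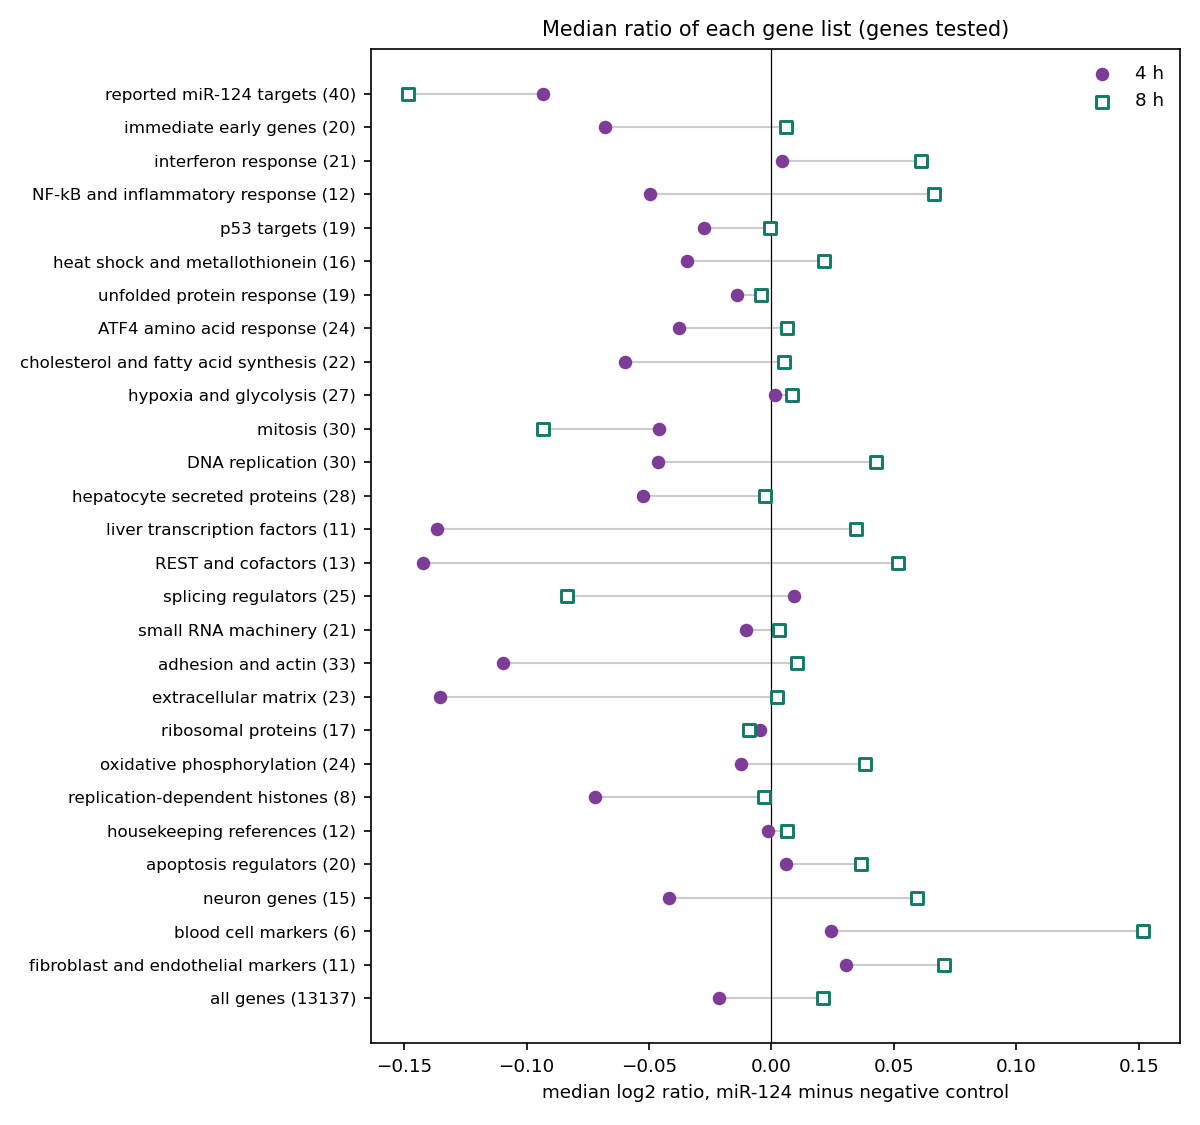
Median log2 ratio of miR-124 over negative control for each gene list at 4 h (filled circles) and at 8 h (open squares), with the number of genes tested in brackets. Reported targets are lowest at 8 h, at -0.15, and the REST list is lowest at 4 h, at -0.14, where all genes are at -0.02.

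Mitosis genes were slightly low at 8 h as a group. Of 30 tested, 27 (90%) were below 0 at 8 h, beside 43.0% of all genes, with a median of -0.09. At both times 17 were below 0 and 0 above 0, beside 21.8% and 22.2% of all genes. CCNA2, the cyclin of S and G2 phase, was at -0.32 at 8 h, the spindle kinase AURKA at -0.27, the condensin subunit NCAPG at -0.19, and CDK1 at -0.16. At 4 h CCNA2 was at 0.15 and AURKA at 0.13. None of the 30 was past 1.5-fold or called at 4 and 8 h or at 16 to 32 h. Past 1.5-fold lower were 0.251% of all genes at 4 h and 0.396% at 8 h, and higher 0.107% and 0.0228%. At 16 to 32 h 4.36% of all genes were called lower and 3.46% higher. At such shares 30 genes would hold few or none, so these counts do not set the list apart. With a loess of each pair 25 of the 30 were below 0 at 8 h, and 15 at 4 h.

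The lists of REST cofactors, of adhesion and of matrix genes were low at 4 h and near or above 0 at 8 h, unlike the reported targets, which were low at both. Over all genes, 56.6% were below 0 at 4 h and 43.0% at 8 h. For REST, the repressor of neuronal genes, and its cofactors, 13 of 13 were below 0 at 4 h, with a median of -0.14, and 4 of 13 at 8 h, with a median of 0.05. EHMT2, a histone methyltransferase of this group, was at -0.50 and 0.19, CTDSP2, one of the small phosphatases that serve REST, at -0.33 and 0.07, and REST itself at -0.02 and -0.01. Other probe sets of EHMT2 read -0.02 and 0.06 at 4 h, so its low value there rested on 1 probe set. RCOR1, the corepressor that binds REST, was at -0.11 and -0.20 and was called lower at 16 to 32 h, at -0.58 ± 0.14 (SE, adjusted p = 0.048). Adhesion and actin genes had 27 of 33 below 0 at 4 h, at a median of -0.11, and 15 of 33 at 8 h, at 0.01. TLN1 at -0.84, the regulatory myosin light chain MYL9 at -0.58 and ZYX at -0.51 were the lowest at 4 h, and were at 0.13, 0.18 and 0.32 at 8 h. Extracellular matrix genes had 19 of 23 below 0 at 4 h, at a median of -0.14, and 11 of 23 at 8 h. COL18A1 was at -0.74 and 0.20, and the collagen cross-linking oxidase LOX at -0.09 and -0.41. The other probe set of COL18A1 read -0.28 and -0.02. Those of LOX read -0.19 and 0.09 at 4 h, and -0.09 and -0.01 at 8 h. The medians of the adhesion and matrix lists at 8 h turn to -0.01 and -0.02 when arrays are centred on their medians.

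Splicing regulators had 18 of 25 below 0 at 8 h, beside 43.0% of all genes, at a median of -0.08. The lowest, MBNL1, read 9.90 after miR-124 and 9.81 in the control at 4 h, and 9.13 and 9.58 at 8 h. In 2 more of its probe sets the ratios were -0.82 and -0.42 at 8 h. At 4 h they were -0.55 and -0.21, against 0.09 for the first. Liver transcription factors had a median of -0.14 at 4 h and 0.03 at 8 h over 11 genes, with PROX1 at 0.68 and CEBPA at -0.65 at 4 h. Other probe sets of PROX1 read 0.07, 0.21 and 0.00 there. In the other 20 lists, with 372 tested entries, medians lay between -0.07 and 0.03 at 4 h and between -0.01 and 0.15 at 8 h, and 2 entries were past 1.5-fold lower and 1 higher at 4 h, and 1 lower and 0 higher at 8 h. The 17 ribosomal protein genes of the list lay between -0.07 and 0.06 at both times. The interferon list had medians of 0.00 and 0.06 and the immediate early list of -0.07 and 0.01. CDKN1A, the p53 target that inhibits cyclin-dependent kinases, read 10.11 after miR-124 and 10.40 in the control at 4 h, and 9.77 and 10.23 at 8 h, and it was not called at 16 to 32 h (-0.19 ± 0.08, SE). HMGCS1 of the cholesterol pathway was at -0.22 and -0.25 and fell at 16 to 32 h by 0.74 on the log2 scale (SE 0.08, adjusted p = 0.0054).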

How the data were processed

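Members and lists were chosen with earlier results of these data known. Total RNA, about 10 µg per the labels, was hybridised to 14 arrays. The deposited values are log2 signals per probe set from RMA, which the submitters' processing notes name as the authors' tool; its version is not given in the sources used here. Of 54675 probe sets, 62 were controls, 41091 had 1 gene symbol in the platform annotation, 1801 several and 11721 none listed, which left 19775 genes. The floor of 6.19 is the median of the probe sets' means.

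Tests were made in R 4.3.3 with limma 3.58.1 (lmFit, eBayes, two-sided, Benjamini-Hochberg over 13137 genes): time as a block and a transfection effect for 4 and 8 h, for 16, 24 and 32 h, and for 72 and 120 h, with 4 residual degrees of freedom. The script was tested on simulated data. The p-values reflect how the effect varied among times, which may in part be technical, and the number of arrays limits the precision. Deviations of the 2 arrays of a time from their group means correlated at 0.206 to 0.480 in all 7 pairs, so times, which the labels give, were kept as pairs. Arrays correlated at 0.904 to 0.997, and 0 pairs held identical values. Figures used matplotlib 3.10.9.

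Genes were named by rule: at each time the 10 lowest and 10 highest ratios and every gene past 2-fold; the 10 lowest and 10 highest by the smaller ratio among genes of the same sign at both times; targets past 1.5-fold and the 10 lowest targets; and 2 members of each other list with the largest mean early ratio. Further list members, and genes named for a share of the later ratio, were chosen after their values were seen. Alternatives were other choices of probe set, floor, scaling, block, shrinkage, tail size (50 and 200 genes) and arrays.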

Additional observations from a re-analysis of the deposited data

Results flagged for a closer look

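Each of 6 control measures was examined over the 7 arrays of each transfection, and 4 of these 12 sets had an array far from the others by Dixon's rule, which flags about 1 in 20 groups by chance. The 7 arrays of a transfection differ in time and are not replicates.

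The mean 18S signal was 11.1 on the miR-124 array of 4 h and 7.60 to 8.28 on the other 6 miR-124 arrays. The poly-A spikes read 7.40 on the same array and 5.73 to 6.07 on the others. The hybridisation spikes read 9.74 there and 9.31 to 9.49 on the others. The 3′ minus 5′ difference of ACTB was 0.561 on the miR-124 array of 24 h and 0.351 to 0.418 on the other miR-124 arrays.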

How the results depend on the processing

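The test over 4 and 8 h called 0 genes under each of its alternatives, with 35 to 479 genes at an unadjusted p under 0.05; its lowest adjusted p was 0.318, without the 4 h pair. Without the block for time (the pairing of arrays) it also called 0. Over the results counted here, 158 values kept their side and size under an alternative, 72 moved and 0 reversed. Of the gene lists, only the targets were in this count. Medians of several other lists turned sign with centring or loess. An example is the immediate early list at 8 h, which went from 0.01 to -0.01 with centring.

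With the mean of a gene's probe sets, genes 1.5-fold higher at 4 h were 8, 2-fold higher at 4 h 2, 1.5-fold lower at 8 h 28, 2-fold lower at 8 h 2, and higher at 16 to 32 h 278; 56% of the lowest 100 at 8 h were called later. With every probe set on its own, 121 were 1.5-fold lower and 113 higher at 4 h, 4 and 19 at 2-fold, 178 lower and 5 higher at 8 h, 28 and 1 at 2-fold, 905 lower at 16 to 32 h, and that share was 42%. Without probe sets ending in _x_at or _s_at, 31 were 1.5-fold higher at 4 h, 1 was 2-fold higher at 8 h, and the share was 56%. With no floor, 24 were 1.5-fold higher at 4 h and 6 at 8 h, and the correlation of both times was -0.0864; above the upper quartile 8 were 1.5-fold higher at 4 h, 5 were 2-fold lower at 8 h, and it was -0.282.

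Leaving out a pair gave 0 to 383 genes called lower at 16 to 32 h and 0 to 255 higher, 0% to 60% of the lowest 100 at 8 h, 0% to 1% of those at 4 h, and medians of the genes called lower down to -0.417 at 8 h and -0.116 at 4 h. Without the 4 h or the 8 h pair 328 were lower and 193 higher; without the 32 h pair 9 and 3, with 3% of the lowest 100 at 8 h. On its own 6 arrays that window called 1074 lower and 1090 higher, with 81% of the lowest at 8 h and 13% at 4 h, and a median at 8 h of -0.125. With tails of 50 and 200 genes the share was 80% and 58%. The requirement of 2-fold at each of 16, 24 and 32 h, chosen after seeing the data, gave 31% at 8 h, 0% at 4 h, and medians of -0.498 and -0.115. Centring moved none of the counted results. Loess took the overlap of the highest 100 genes from 1% to 0%, and the 4 h medians of the genes called lower and of the targets to -0.028 and -0.056. No array repeats another, so the limit is the number of arrays; low signals near the floor limit CENPQ, NAPEPLD, DSG2-AS1 and RPLP2.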

Other observations

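Beside the genes named above, the 150 genes called and at least 2-fold lower at 16 to 32 h held others with low ratios at 8 h, named here after their values were seen. TMEM87B, a membrane protein, was at -0.94 at 8 h and -0.12 at 4 h, MIGA1, which acts in mitochondrial fusion, at -0.91 and -0.11, and the transporter family member SLC10A7 at -0.90 and 0.02. LYSMD3 was at -0.82 and -0.06, and FERMT2, the kindlin that activates integrins, at -0.72 and -0.01. For each of these 5 genes the ratio at 4 h was within 0.12 of 0.

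Among the 100 lowest genes at 4 h, 5 were among the 100 highest at 8 h. They were ABHD14B at -0.85 and 0.40, the lysosomal glucosidase GAA at -0.72 and 0.41, the histone methyltransferase DOT1L at -0.62 and 0.35, MEX3D at -0.58 and 0.36, and ZNF598, a sensor of collided ribosomes, at -0.53 and 0.34. None of the 5 was called at 16 to 32 h, where 4.36% of all genes were called lower and 3.46% higher. This count does not set them apart from other genes.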
